A study of Caenorhabditis elegans with 9 samples.

Results

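The ugt genes of Caenorhabditis elegans encode UDP-glycosyltransferases, a family named for UDP-glucuronosyltransferase activity. They were taken here as every gene of the deposited table whose name begins with ugt- followed by a digit, which gave 61 of 21776 genes. The libraries came from intestines dissected from adult N2 worms, the wild-type strain, that had grown in the liquid medium mCeHR2 at 20 °C for 4 days from the first larval stage with 2, 20 or 400 µM heme. Each library pooled the intestines of 3 worms and was prepared by SMART-seq, which copies and amplifies the whole messenger RNA of small samples, and each dose has 3 libraries. The labels give the same strain for all worms and name heme as the only difference in treatment, and the middle dose, 20 µM, is the reference for the comparisons below. The labels do not state whether libraries of the same dose stem from different cultures, and the p-values thus reflect the spread among these 9 libraries alone, which may be technical.

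UDP-glycosyltransferases sit in the membrane of the endoplasmic reticulum and move a sugar from a UDP-sugar onto small, fat-soluble molecules, which makes these molecules easier to dissolve and to excrete. In mammals the sugar is mostly glucuronic acid, and a member of the family conjugates bilirubin, the breakdown product of heme. In C. elegans the added sugar is often glucose, the intestine is a main site of the reaction, and the family is best known from the conjugation of drugs and other foreign compounds. The substrates of most single worm members are not known, so the members below are told apart by level, dose and position rather than by reaction. The heme comparison is of interest here because C. elegans cannot make heme and takes all of it from the medium.

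Libraries held between 44385011 and 72960600 counts, of which ribosomal RNA took between 2.30 and 42.0%. The intestinal markers elt-2, ges-1 and ifb-2 were present in all 9 libraries, and of the 14 measured intestinal markers only pgp-1 was at 0 in a library, 20 µM replicate 3. The 12 that are not vitellogenins made up 3.29, 3.69 and 4.11% of the counts in the 400 µM libraries, all above the 1.65 to 2.85% of the other 6. Most of these counts at 400 µM were of asp-1, with 23692, 25117 and 33253 CPM there against 11909 to 14332 CPM in the other 6. The median log2 fold change of the 14 markers for 400 against 20 µM was −0.60, beside −0.03 over all genes. With the vitellogenins, the list of intestinal markers gave 4.52% in 2 µM replicate 1 and 2.21% in 20 µM replicate 2, against 9.70 to 20.2% in the other 7. Some libraries stood apart. At 2 µM, replicate 1 held 0.866% of its counts in 8 hypodermal markers, all of them cuticle collagens, against 0.0193 and 0.0187% in replicates 2 and 3. The same list spanned 0.0127 to 0.0641% at 20 µM and 0.0637 to 0.439% at 400 µM, and dpy-13 and sqt-3 were at 0 in replicates 2 and 3 at 2 µM. Its members went opposite ways between 20 and 400 µM. The means of col-19, col-119 and col-140 were higher at 400 µM, with 213 and 1297 CPM for col-140. Those of rol-6, dpy-13, bli-1 and sqt-3 were lower there, with 17.1 and 0.105 CPM for dpy-13, and dpy-7 was near the floor at both doses. At 20 µM, replicate 2 held 0.106% in 12 pharyngeal markers and replicate 1 held 0.0409%, against 0.00170% in replicate 3, at most 0.00108% at 2 µM and at most 0.0178% at 400 µM. Single pharyngeal markers differed in order: phat-1 had counts in 20 µM replicate 2 only, whereas marg-1 stood at 22.7 CPM in replicate 1 and 0 in replicate 2 of that dose, and tnc-2 at 239.5 and 28.6 CPM there and at 115.3 CPM in 400 µM replicate 1. Markers of sperm and germline differed in level between doses. The 15 sperm markers took 0.751, 0.0703 and 0.406% of counts in the 400 µM libraries, 0.0648 to 0.0699% at 2 µM and 0.00371 to 0.0107% at 20 µM, and 7 of them were called higher for 400 against 20 µM by edgeR, beside 0.543% of all genes. The 13 germline and oocyte markers took 0.0907 to 0.284% at 400 µM, 0.0118 to 0.0187% at 2 µM and 0.00380 to 0.0103% at 20 µM, with 12 higher at an unadjusted p under 0.05 and 0 called for 400 against 20 µM, beside 11.2 and 0.543% of all genes. The 8 body wall muscle markers took 0.243% in 2 µM replicate 1 and 0.232% in 400 µM replicate 1, against 0.00851 to 0.0468% in the other 7. Replicates 2 and 3 at 2 µM were nearly identical (r = 0.995 across genes on the log2 CPM scale) yet differed by more than sampling noise, so they were kept as separate samples. The spread at 2 µM is therefore partly that of a near-repeat.

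The ugt family as a whole took, on average, the largest share of counts at 2 µM heme. The 61 genes summed to 0.604, 0.336 and 0.314% of all counts in replicates 1 to 3 of 2 µM. With 20 µM heme they summed to 0.149, 0.281 and 0.12%, and with 400 µM to 0.210, 0.128 and 0.185%. By this share all 3 libraries at 2 µM lay above all others, by a small margin over 20 µM replicate 2, while the 20 and 400 µM libraries overlapped. In CPM (counts scaled to a common total of all counts), the sums were 4178 ± 1613, 1833 ± 862 and 1746 ± 420.2 at 2, 20 and 400 µM (mean ± SD, n = 3 libraries for every mean in this text). After scaling by TMM, a normalisation that evens out differences in RNA make-up between libraries, they were 3783 ± 1421, 2175 ± 443 and 1517 ± 183, in the same order and again with all 2 µM libraries above the rest. With the ribosomal RNA genes left out of the totals, that separation was lost. The sums were then 6259, 3914 and 3676 CPM with 2 µM heme, 1520.4, 4350 and 2065 CPM with 20 µM, and 2246, 1389 and 2096 CPM with 400 µM. On that scale 20 µM replicate 2 stood above 2 µM replicates 2 and 3, and the 400 µM libraries stayed below all of 2 µM. The 95% Wilson interval of each share reached at most 0.00178 percentage points to either side and covers counting error only. In such bulk samples, a lower level from fewer cells of a type cannot be told apart from less RNA per cell.

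The make-up of the family also differed between doses. At 2 µM, ugt-12, ugt-16 and ugt-62, a trio picked after its values were seen, together gave 32.5 ± 0.889% of all ugt counts, against 3.37 ± 1.85% at 20 µM and 3.66 ± 0.378% at 400 µM. The reverse order was seen for ugt-44, which gave 1.91, 1.52 and 1.60% of ugt counts in the 2 µM libraries, 22.1, 5.73 and 30.2% with 20 µM heme, and 34.1, 29.1 and 31.4% with 400 µM. The 2 µM values of ugt-44 lay below all others, and replicate 2 at 20 µM, the library with the most pharyngeal marker RNA, lay between them and the rest. Counting error was small beside this, with 95% Wilson intervals of at most 0.390 percentage points to either side. By FPKM (fragments scaled to transcript length and library size, which allows levels of different genes to be compared), the most abundant member was ugt-12 in replicate 1 and ugt-16 in replicates 2 and 3 at 2 µM. At 400 µM it was ugt-44 in all 3 libraries, and at 20 µM it was ugt-44 in replicates 1 and 3 and ugt-23 in replicate 2.

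**Figure D1:**
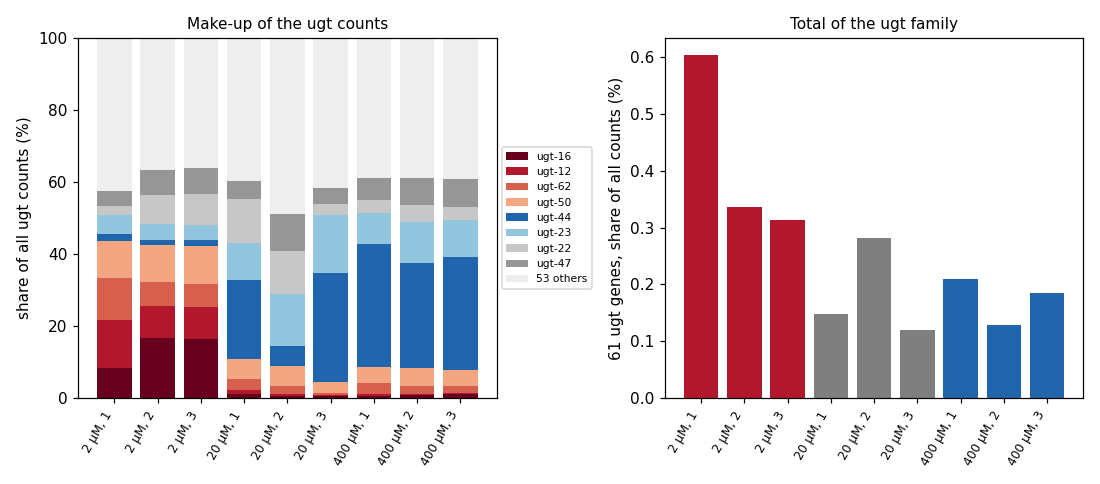
Left, share of all ugt counts (%) taken by 8 named members and by the 53 others in each of the 9 libraries. Right, share of all counts (%) taken by the 61 ugt genes in the same libraries, coloured by dose; the dark red block of ugt-16 is wide only at 2 µM and the dark blue block of ugt-44 is narrowest there, at 1.52 to 1.91%, and next at 5.73% in 20 µM replicate 2, while the sum is between 0.314 and 0.604% at 2 µM and between 0.12 and 0.281% elsewhere.

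Low heme was compared with the middle and with the high dose, and these comparisons share the 2 µM libraries. In both, ugt-16 rose at 2 µM and no other member passed the test. Its level was 504, 559 and 519 CPM in the 2 µM libraries, 18.6, 19 and 5.93 CPM with 20 µM, and 11.9, 11.8 and 19.2 CPM with 400 µM. Every 2 µM library stood far above the other 6, whose ranges overlapped. The gene lies on chromosome V from 12825024 to 12827442 on the plus strand (WBcel235), has 7 exons and 534 codons, and is known in C. elegans from responses to benzimidazole anthelmintics. The log2 fold change was 4.70 (SE 0.59) against 20 µM with an adjusted p of 0.0436, and 5.25 (SE 0.61) against 400 µM with an adjusted p of 0.0295 (edgeR quasi-likelihood test over 13434 genes, Benjamini-Hochberg). This makes 1 of 54 members tested in each comparison, beside 0.0744% of all genes called for 2 against 20 µM and 0.104% for 2 against 400 µM. With 1 library left out at a time, the log2 fold change against 20 µM stayed between 4.36 and 5.31, but its adjusted p ran from 0.0161 to 0.175, and the call was kept only when 20 µM replicate 1 was the library left out. Against 400 µM the range was 5.01 to 5.46 with adjusted p from 0.00566 to 0.258, and the call was kept only without 20 µM replicate 1 or without 20 µM replicate 3.

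Several further members had a similar order of levels without passing the adjusted threshold. For ugt-12, the values were 805, 301 and 278 CPM with 2 µM, 16.6, 17.6 and 3.94 CPM with 20 µM, and 10.6, 2.47 and 7.0 CPM with 400 µM. The 2 µM libraries lay above the rest without overlap, and replicate 1 stood well above the other 2 µM libraries. Its log2 fold changes were 4.70 (SE 0.83, adjusted p = 0.0971) against 20 µM and 6.21 (SE 0.90, adjusted p = 0.0548) against 400 µM. For ugt-17, the values were 161, 193 and 173 CPM with 2 µM, 12.5, 32.5 and 8.83 CPM with 20 µM, and 18.9, 27.2 and 25.1 CPM with 400 µM. Here the 2 µM libraries lay close together, and replicate 1 was the lowest of them. The log2 fold changes of ugt-17 were 2.98 (SE 0.45, adjusted p = 0.0710) and 2.90 (SE 0.45, adjusted p = 0.0655) in the same order. With ugt-21, the 2 µM libraries stood at 242, 128 and 124 CPM, those at 20 µM at 19.6, 34.8 and 2.93 CPM, and those at 400 µM at 7.56, 3.17 and 6.96 CPM. The groups at 20 and 400 µM overlapped in 20 µM replicate 3, the lowest library of all for this gene. The log2 fold changes of ugt-21 were 2.76 (SE 0.74, adjusted p = 0.175) against 20 µM and 4.89 (SE 0.82, adjusted p = 0.0761) against 400 µM.

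**Figure D2:**
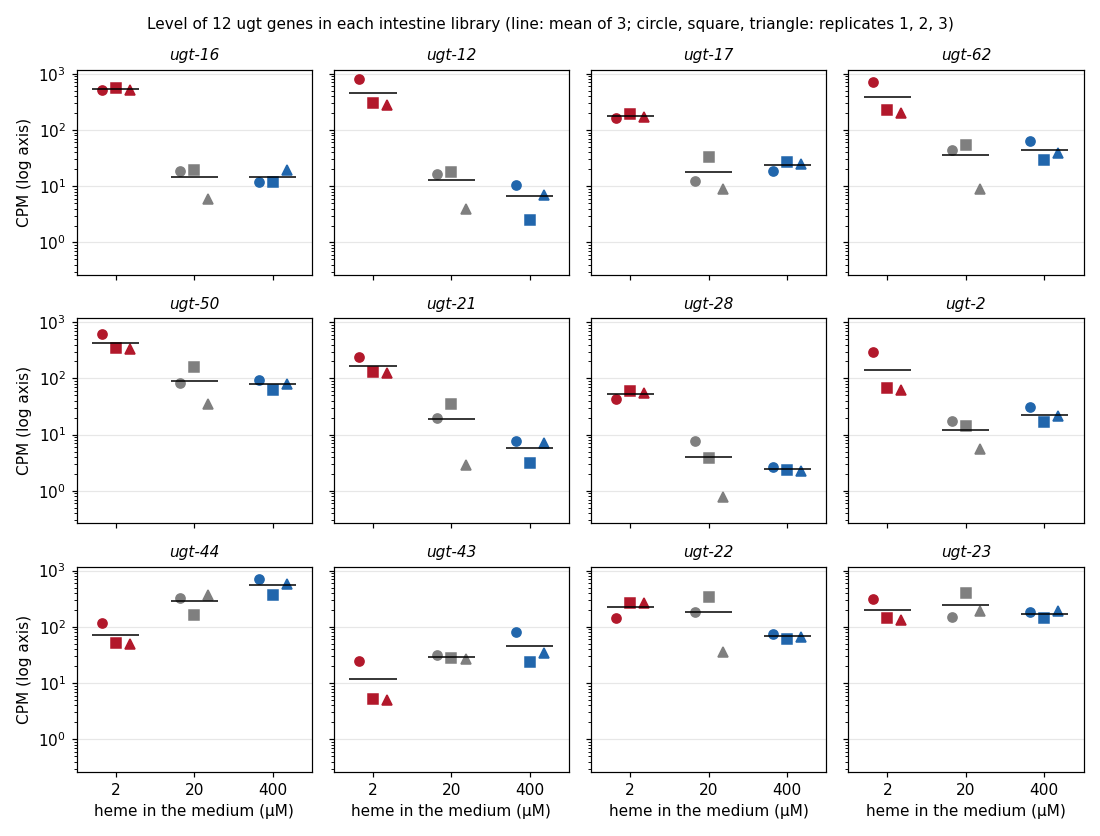
Level of 12 ugt genes in each library, in CPM on a log axis, against the heme dose (2, 20 or 400 µM). Points are libraries (circle, square and triangle for replicates 1, 2 and 3) and the line is the mean of 3; in the upper 8 panels every 2 µM point lies above every other point, for ugt-44 every 2 µM point lies below, and the groups of ugt-43, ugt-22 and ugt-23 overlap in part or in full.

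In all, 12 members stood in every 2 µM library above every library of both other doses, a group named here after its values were seen: ugt-2, ugt-12, ugt-16, ugt-17, ugt-19, ugt-21, ugt-27, ugt-28, ugt-48, ugt-50, ugt-61 and ugt-62. The same 12 did so in CPM, after TMM scaling and in CPM with the ribosomal RNA genes left out. This is 22.2% of the 54 members tested, beside 5.72% of all genes tested in CPM and 4.11% after scaling. The ratio of the lowest 2 µM library to the highest other library ranged from 1.68 to 26.2 among them. As a description of a group picked on these values, the 12 summed to 2657 ± 929 CPM with 2 µM, 290.3 ± 188 CPM with 20 µM and 255 ± 67.2 CPM with 400 µM. The other 49 members summed to 1521 ± 684, 1542 ± 681 and 1491 ± 355 CPM. After TMM scaling their sums were 1377 ± 605, 1835 ± 287 and 1295 ± 153, with the highest mean at 20 µM.

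Among these 12, the library with the most hypodermal marker RNA was not uniformly the highest. In 4 of them, ugt-2, ugt-12, ugt-61 and ugt-62, 2 µM replicate 1 stood at more than 2 times both other libraries of its dose. In 5 of them, ugt-16, ugt-17, ugt-27, ugt-28 and ugt-48, it was the lowest library of its dose. Of all 54 members tested, 28 stood more than 2 times higher in that library than in both others of its dose. That is a larger share than the 25.4% of all genes tested. Of the 54, 21 had their highest value of all 9 libraries there, again a larger share than the 21.2% of all genes tested. As for ugt-62, the values were 711, 226 and 197 CPM with 2 µM, 43.1, 54.8 and 8.99 CPM with 20 µM, and 63.5, 29.3 and 38.4 CPM with 400 µM. The level of ugt-50 was 614, 343 and 333 CPM with 2 µM, 82.3, 157 and 34.6 CPM with 20 µM, and 95.3, 63.4 and 78.1 CPM with 400 µM. In both genes the order of the 2 µM libraries was the same, and the gap to the other doses held in replicates 2 and 3 as well. Without 2 µM replicate 1 and 20 µM replicate 2, a pair chosen after the data were seen for their low share of intestinal markers with vitellogenins, the log2 fold changes against 400 µM were 5.25 for ugt-16, 5.5 for ugt-12, 2.93 for ugt-17, 2.31 for ugt-62 and 2.12 for ugt-50. No member was called in that fit, with an adjusted p of 0.0731 for ugt-16.

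Across the whole family, the members tested had a higher median at 2 than at 400 µM, while against 20 µM the median lay near that of all genes. Against 400 µM the median log2 fold change of the 54 members was 0.75, beside 0.02 over all genes, with 17 members higher and 2 lower at an unadjusted p under 0.05, beside 5.2 and 5.37% of all genes. Against 20 µM the median was 0.26, beside 0.12 over all genes, with 13 members higher and 3 lower at an unadjusted p under 0.05, beside 8.09 and 5.34%. Without 2 µM replicate 1 the medians fell to 0.28 (all genes −0.29) and −0.12 (all genes −0.12), and without 20 µM replicate 3 the second was −0.13 (all genes 0.08). By limma-voom with sample weights the medians were 0.43 (all genes −0.11) against 400 µM and 0.08 (all genes 0.17) against 20 µM. DESeq2 called 12 members higher and 1 lower in each comparison, and gave no adjusted p for 4. Of all genes with an adjusted p, it called 4.67% higher and 2.81% lower for 2 against 20 µM, and 1.83% higher and 2.94% lower for 2 against 400 µM. This limma-voom fit called 6 members higher and 3 lower against 20 µM, beside 0.677 and 1.21% of all genes. Against 400 µM it called 17 higher and 13 lower (31.5 and 24.1% of the members tested), beside 9.64 and 17.7%. Of these 13, ugt-33 and ugt-4 had log2 fold changes of −4.40 and −1.66 by limma-voom but of 0.88 and 0.73 by edgeR, so that their direction depends on the tool.

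**Figure D3:**
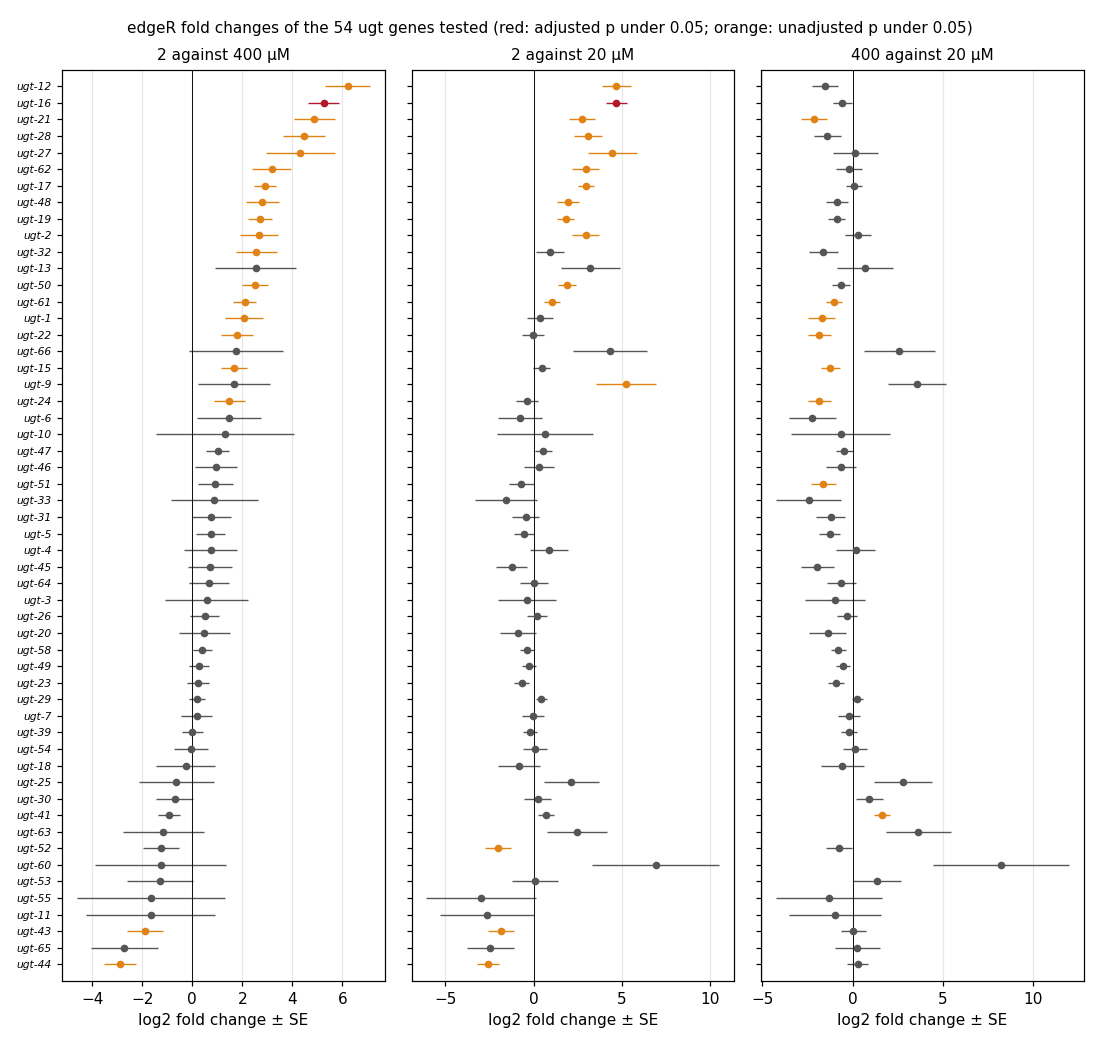
The log2 fold change (± SE, edgeR) of each of the 54 members tested, ordered by the comparison of 2 against 400 µM. Red marks an adjusted p under 0.05 and orange an unadjusted p under 0.05: ugt-16 is the only red point, at 5.25 and 4.70, and the right panel for 400 against 20 µM has none. The value of ugt-60, which had no count at 20 µM, depends on the prior count.

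The opposite order was seen in ugt-44, the most abundant member by mean FPKM over all libraries, and less clearly in its neighbour ugt-43. The level of ugt-44 was 115, 51.2 and 50.2 CPM with 2 µM, 328, 161 and 362 CPM with 20 µM, and 716, 373 and 583 CPM with 400 µM. The 3 doses did not overlap in CPM, whereas after TMM scaling the 20 and 400 µM libraries did. It was the only member below both other doses in all 2 µM libraries by CPM (1.85% of the members tested, beside 0.908% of all genes), and ugt-43 joined it after TMM scaling (3.70%, beside 1.3%). The log2 fold changes of ugt-44 were −2.60 (SE 0.63, adjusted p = 0.140) against 20 µM and −2.88 (SE 0.64, adjusted p = 0.160) against 400 µM. DESeq2 called both. For ugt-43, the values were 24.7, 5.31 and 5.08 CPM with 2 µM, 31.8, 28 and 26.4 CPM with 20 µM, and 80.3, 23.4 and 34.4 CPM with 400 µM. Replicate 1 at 2 µM overlapped the 400 µM libraries in CPM. The log2 fold changes were −1.84 (SE 0.73, adjusted p = 0.338) and −1.89 (SE 0.73, adjusted p = 0.433). The genes lie on chromosome IV of WBcel235 on the plus strand, ugt-43 from 10464588 to 10467297 and ugt-44 from 10469741 to 10471899. Lower values at 2 µM were also measured for ugt-52, with means of 4.66 ± 2.76, 13.9 ± 9.48 and 11.4 ± 7.14 CPM, and for ugt-65, with 2.38 ± 2.04, 13 ± 20.2 and 15.3 ± 6.80 CPM at 2, 20 and 400 µM. The groups overlapped for ugt-52. For ugt-65 the value at 20 µM rested on replicate 2, with 36.3 CPM against 2.44 and 0.180 CPM, and without it the log2 fold change of 2 against 20 µM went from −2.44 to −0.07.

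High heme was then compared with the middle dose, across which the sperm and germline markers differed as given above. No member passed the edgeR test, beside 0.551% of all genes, and 1 member was higher and 7 lower at an unadjusted p under 0.05, beside 11.2 and 7.28% of all genes. DESeq2 called 4, with ugt-41 higher and ugt-21, ugt-22 and ugt-24 lower at 400 µM, beside 9.63 and 3.59% of all genes. Limma-voom called 0 members, beside 0% of all genes, and had 10 members (18.5%) at an unadjusted p under 0.05, beside 14.2%. The median log2 fold change of the members was −0.62, beside −0.03 over all genes. It was −0.20 without 20 µM replicate 1 (all genes 0.32), −0.20 without 20 µM replicate 2 (all genes 0.11) and −0.90 without 20 µM replicate 3 (all genes −0.08). Plain CPM stood on average 0.50 higher on the log2 scale than TMM-scaled CPM for 400 against 20 µM, 0.46 higher for 2 against 20 µM and 0.04 lower for 2 against 400 µM, because the factors of the 20 µM libraries ran from 0.599 to 1.19. Members whose 400 and 20 µM libraries did not overlap were therefore, in CPM, 8 higher and 2 lower. These are 14.8 and 3.7% of the members tested, beside 24.8 and 1.22% of all genes. After scaling they were 6 higher and 8 lower (11.1 and 14.8%, beside 16.7 and 7.44%).

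By p alone, ugt-41 led the members higher at 400 µM, and ugt-21, ugt-24, ugt-22 and ugt-15 led those lower. The level of ugt-41 was 10.8, 11.5 and 8.79 CPM with 2 µM, 2.27, 8.40 and 4.66 CPM with 20 µM, and 21.7, 9.49 and 31.8 CPM with 400 µM, with a log2 fold change of 1.63 (SE 0.45, adjusted p = 0.137) for 400 against 20 µM. All 400 µM libraries lay above all 20 µM ones, by a small margin in replicate 2. For ugt-22, which is known in C. elegans from tolerance to benzimidazoles, the values were 145, 271 and 265 CPM with 2 µM, 183, 341 and 35.8 CPM with 20 µM, and 75.9, 61.5 and 67.3 CPM with 400 µM. The 20 µM libraries enclosed the 400 µM ones, and the log2 fold change was −1.83 (SE 0.65, adjusted p = 0.201). The log2 fold changes of ugt-21, ugt-24 and ugt-15 were −2.13 (SE 0.73), −1.84 (SE 0.63) and −1.22 (SE 0.51), with adjusted p of 0.188, 0.189 and 0.247. On the other side, ugt-60 had no count in any 20 µM library, 1.47, 0.595 and 0 CPM with 400 µM, and 0.822, 0 and 0 CPM with 2 µM. Its mean at 400 µM was at least 12.1-fold higher than a floor of 3 counts per 20 µM library. Leaving out 400 µM replicate 1 brought this bound to 5.24-fold, and 1 of the 400 µM libraries had no count either. For ugt-63, 20.3, 3.36 and 1.41 CPM at 400 µM stood against 0.549, 0.191 and 0.428 CPM with 20 µM, with an adjusted p of 0.313. With 2 µM it had 10.1, 0.0644 and 0.255 CPM. In both ugt-60 and ugt-63 the highest libraries were replicate 1 of 400 µM and replicate 1 of 2 µM. These also held the most body wall muscle marker RNA, and a link between them was not tested. The third gene known from benzimidazole responses, ugt-9, had 3.28, 0.547 and 0.819 CPM with 2 µM, 0, 0.114 and 0 CPM with 20 µM, and 0.824, 0.350 and 0.361 CPM with 400 µM, so that the 20 µM libraries were the lowest (adjusted p = 0.257 for 2 and 0.275 for 400 against 20 µM).

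Levels within the family spanned several orders of magnitude. By mean FPKM over the 9 libraries 4 members stood at 100 or more, 22 between 10 and 100, 22 between 1 and 10 and 13 below 1. The 6 highest were, in order, ugt-44, ugt-23, ugt-50, ugt-16, ugt-12 and ugt-22, an order over all doses that hides differences between them. By mean FPKM at 2, 20 and 400 µM, ugt-44 had 41.6 ± 21.6, 162 ± 62.6 and 320.1 ± 98.8, and ugt-16 had 308 ± 16.1, 8.39 ± 4.31 and 8.32 ± 2.37. In rank these were places 15, 1 and 1 for ugt-44 and places 1, 22 and 25 for ugt-16 among the 61 members. In the same order of doses, ugt-12 held places 2, 26 and 35, ugt-23 places 7, 2 and 2, ugt-50 places 3, 7 and 5, and ugt-22 places 5, 3 and 6. For ugt-23 the values were 317, 142.4 and 132 CPM with 2 µM, 149, 401 and 194 CPM with 20 µM, and 181, 147 and 189.9 CPM with 400 µM. The doses overlapped in CPM, and the highest libraries of the lower doses were 2 µM replicate 1 and 20 µM replicate 2. Both stood apart in their markers, as did 20 µM replicate 1, with 0.0409% in pharyngeal markers. For ugt-23, 20 µM replicate 1 was the lowest library of its dose. Library 20 µM replicate 2 stood more than 2 times above both others of its dose in 21 of the 54 members tested. That is a larger share than the 26.3% of all genes tested. In ugt-6, for example, it had 306 CPM against 10.4 and 14.6 CPM. The part of hypodermal, pharyngeal, sperm, germline or muscle tissue in these and the other values was not tested.

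At the low end, 7 members had too few reads for testing: ugt-8, ugt-14, ugt-34, ugt-36, ugt-37, ugt-38 and ugt-59. Their highest value in any library was 4.28 CPM, for ugt-8 in 2 µM replicate 1. Between 46 and 58 of the 61 members had at least 1 count in a library, and a floor of 3 counts equals 0.0411 to 0.0676 CPM. By mean CPM over the libraries of a dose, 28 of the 54 members tested were highest at 2 µM, 13 at 20 µM and 13 at 400 µM, beside 36.3, 22.7 and 40.9% of all genes tested. After TMM scaling the numbers were 25, 19 and 10, beside 30.3, 35.4 and 34.2%. Without 2 µM replicate 1, 24 of the 54 members in CPM and 20 after TMM scaling were highest at 2 µM. Both are larger shares than the 28.7 and 23.3% of all genes tested. After scaling, 21 of the 54 were then highest at 20 µM, near the share of 38.5% of all genes tested.

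**Figure D4:**
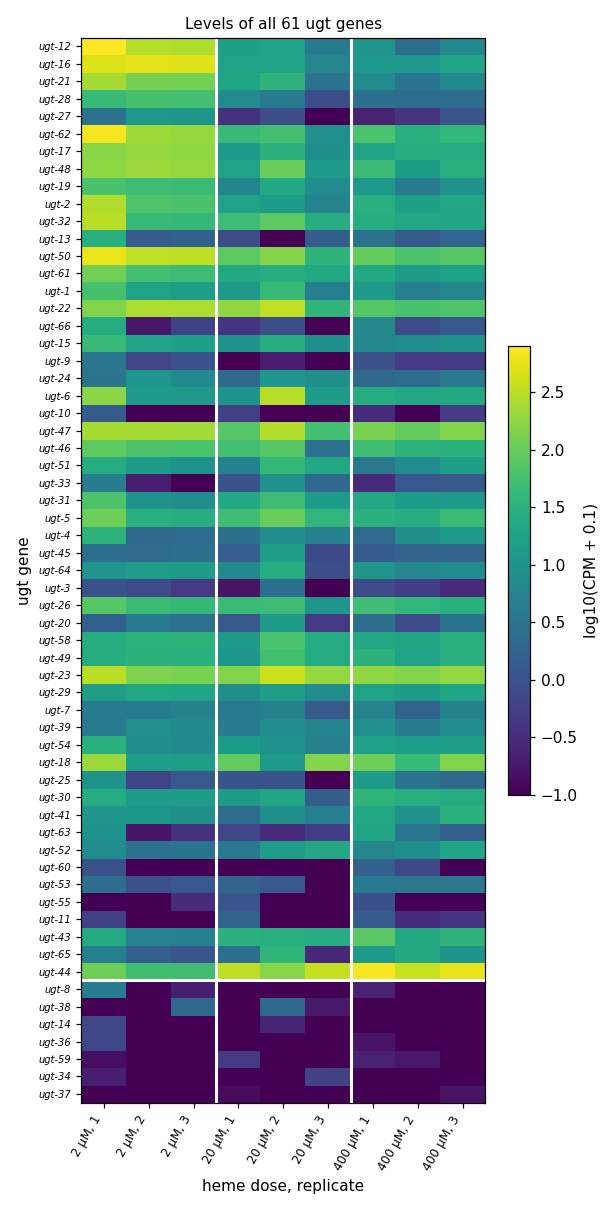
Level of all 61 ugt genes, as log10 of CPM plus 0.1, in the 9 libraries, with members ordered from the highest to the lowest log2 fold change of 2 against 400 µM and the 7 that were not tested below the white line. The first 10 rows are brightest in the 3 columns at 2 µM, and ugt-44, the last row above the line, is dimmest there.

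The annotation places 37 of the 61 members on chromosome V, 12 on IV, 5 on I, 3 each on III and X and 1 on II, and all are protein coding with 501 to 542 codons and 4 to 11 exons. Runs of members less than 10 kb apart, 9 in all, hold 31 of them, and 30 stand alone. Of the 12 members that stood highest in every 2 µM library, 7 lie in runs and 5 alone. Neighbours did not share 1 pattern. The run from 12820260 to 12830114 on chromosome V holds ugt-18, ugt-16 and ugt-15, and from 400 to 2 µM their log2 fold changes were −0.27, 5.25 and 1.68. Next to ugt-12, in a run of 7 members from 4887165 to 4911399 on the same chromosome, ugt-8, ugt-9, ugt-10, ugt-11, ugt-13 and ugt-14 had low levels, of at most 28.5 CPM in any library. Both members of the pair ugt-43 and ugt-44 were lower at 2 µM, at −1.89 and −2.88, and both of the pair ugt-1 and ugt-2 were higher, at 2.07 and 2.68. On chromosome I, ugt-27 and ugt-28 stood at 4.32 and 4.46 while their outer neighbours ugt-26 and ugt-25 stood at 0.50 and −0.64. Apart from ugt-16 none of these passed the adjusted threshold. How reads that match several family members were counted is not given in the sources used here, so close relatives in a run cannot be separated with certainty.

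**Figure D5:**
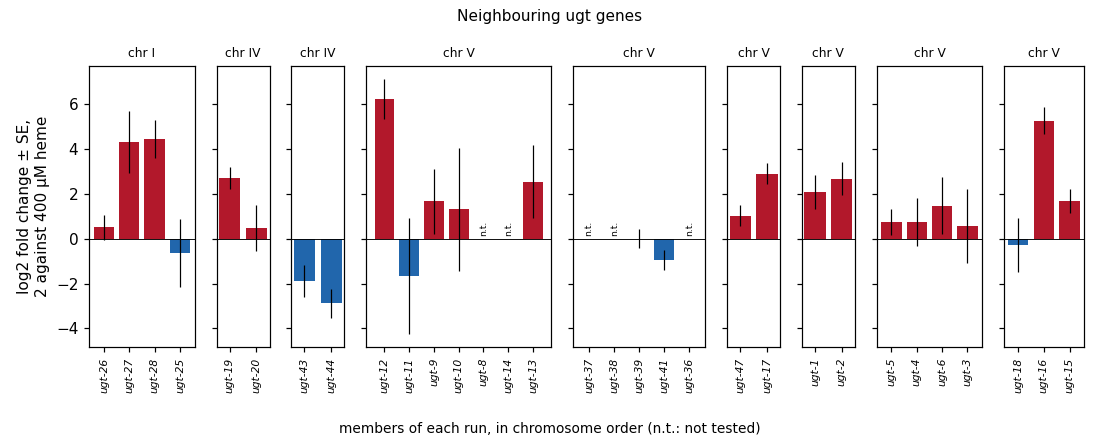
The log2 fold change (± SE, edgeR) for 2 against 400 µM of the members of the 9 runs, in chromosome order, with n.t. for members not tested. Red bars are higher and blue bars lower at 2 µM; ugt-16 and ugt-12 stand far above their neighbours, at 5.25 and 6.21, while ugt-43 and ugt-44 are both below 0.

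Genes of UDP-sugar metabolism, and regulators of detoxification, were set beside it. The list held 11 genes for the supply or, for uggt-1 and uggt-2, the use of UDP-sugars. Of these, 10 were tested and none was called in any of the 3 comparisons by edgeR. For 2 against 20, 400 against 20 and 2 against 400 µM, 1, 2 and 1 of them had an unadjusted p under 0.05, beside 13.4, 18.5 and 10.6% of all genes. Their median log2 fold changes were 0.16, 0.27 and 0.23, beside 0.12, −0.03 and 0.02 over all genes. The epimerase gene gale-1, which interconverts UDP-glucose and UDP-galactose, stood at 33.1, 49.9 and 48.6 CPM with 2 µM, 8.42, 2.80 and 2.03 CPM with 20 µM, and 37.5, 5.24 and 6.18 CPM with 400 µM (adjusted p = 0.294 for 2 against 20 µM). For sqv-4, the UDP-glucose dehydrogenase that makes UDP-glucuronic acid, the means were 9.41 ± 1.86, 6.57 ± 3.92 and 26.4 ± 7.82 CPM, with every 400 µM library above every other (adjusted p = 0.169 for 400 against 20 µM). The UDP-glucose pyrophosphorylase K08E3.5, which makes UDP-glucose, had 141.6 ± 24.5, 97.0 ± 11.4 and 132 ± 25.7 CPM. Of 16 regulators, 15 were tested and none was called by edgeR, with 1 at an unadjusted p under 0.05 in each comparison, beside the same shares of all genes. Among them daf-16, the FOXO factor of the insulin pathway, stood at 48.3, 45.5 and 42.5 CPM with 2 µM, 7.22, 19.3 and 9.46 CPM with 20 µM, and 17.9, 22.7 and 22.3 CPM with 400 µM. The 2 µM libraries lay above all others, with a log2 fold change of 1.57 (SE 0.35, adjusted p = 0.119) against 20 µM. The stress factor gene skn-1 had means of 25.4 ± 11.5, 30.2 ± 38.2 and 26.2 ± 3.48 CPM, and ahr-1, the aryl hydrocarbon receptor gene, had counts in 1 library only, at 0.282 CPM.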

How the data were processed

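The deposited table holds whole-number counts per gene for each of the 9 libraries, per the file headers, and FPKM values computed by the authors. Bowtie 0.12.2 and the build WBcel235 are listed in the submitters' processing notes. The rule that assigned reads to genes, and the lengths behind FPKM, are not given in the sources used here. Lengths implied by counts and FPKM exceeded the annotated exonic length by over 1.5 times in 3 of 52 members, ugt-15, ugt-48 and ugt-49, whose FPKM may therefore be low beside other members. All 61 members were matched to the annotation by gene symbol.

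Counts were fitted with edgeR 4.0.16 in R 4.3.3: filterByExpr kept 13434 of 21776 genes, TMM scaling, a quasi-likelihood fit of all 9 libraries with 1 coefficient per dose, two-sided tests and Benjamini-Hochberg adjustment over all genes tested, with 0.05 as the threshold. The biological coefficient of variation was 0.961. The SE of a log2 fold change was taken as its size over the square root of the quasi-likelihood F statistic. The test was also run on counts simulated from the means, library sizes and dispersions of these data, and no result here rests on that run. CPM are counts scaled to a common total of all counts of the library. FPKM served to rank members and to give their levels by class and by dose, and no test used it.

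Named members were those called in any comparison, the 4 smallest p per comparison and direction, the 6 highest mean FPKM, and ugt-9, ugt-16 and ugt-22. Others were named for their place in a run or because the 2 µM libraries did not overlap with the rest, after their values were seen. The members, the gene lists and the marker lists were chosen with earlier results of these data known. Alternatives were DESeq2 1.42.0, DESeq2 size factors, limma-voom (limma 3.58.1) with sample weights, other filters, only the 2 doses compared, a replicate block, summing 2 near-identical libraries, leaving out 17 ribosomal RNA genes, each library left out in turn and, added after the data were seen, a pair of libraries left out. Planned promoter and protein sequences were not used here.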

Additional observations from a re-analysis of the deposited data

How the results depend on the processing

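Counts of called members rest on 1 gene and moved with most alternatives. For 2 against 20, 2 against 400 and 400 against 20 µM, where edgeR called 1, 1 and 0 members, the numbers called were 13, 13 and 4 by DESeq2, 9, 30 and 0 by limma-voom with sample weights, 2, 5 and 0 with a minimum of 10 CPM in 3 libraries, 1, 2 and 0 with no filter, and 0, 9 and 0 with only the 2 doses compared in the fit. They were 0, 0 and 0 with replicates 2 and 3 at 2 µM summed, and 0, 0 and 0 with 2 µM replicate 1 and 20 µM replicate 2 both left out. DESeq2 size factors, and leaving out the ribosomal RNA genes, gave 1, 1 and 0. With each library left out in turn the numbers ran from 0 to 4, from 0 to 5 and from 0 to 0. The cause of these moves was not tested. With a replicate block the numbers were 0, 0 and 0, and the adjusted p of ugt-16 was 0.0884 and 0.0689 against 20 and 400 µM. The labels do not say what a replicate number stands for, and for this reason the main fit did not treat the numbers as pairs. Deviations of same-numbered libraries correlated between 0.207 and 0.369 for replicates 1 and 3 but between −0.0569 and 0.0133 for replicate 2. The best match carried the same number in 11 of 18 cases. Whether same-numbered libraries share a factor was not tested. Over all 19 alternatives ugt-16 was called in 7 for 2 against 20 µM and in 9 for 2 against 400 µM, with log2 fold changes above 4 in each. With ribosomal RNA left out, the mean summed CPM of the family was 4616, 2645 and 1910.3 at 2, 20 and 400 µM, and the libraries at 2 and 20 µM overlapped. Few reads carry the values of the 13 members with a mean below 1 CPM.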
